A study of Homo sapiens with 4 samples.

Results

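The RNAs of 77 genes of the ubiquitin system were followed through a map of RNA contacts with chromatin. They were chosen by symbol alone from the 2435 protein-coding RNAs, of 2637 RNAs in all, that the authors' table listed. The pattern took ubiquitin-specific proteases (USP), conjugating enzymes (UBE2), HECT-type ligases (UBE3, HECTD, HERC, HUWE), RING-type ligases (RNF), tripartite motif proteins (TRIM), cullins (CUL), F-box proteins (FBXL, FBXO, FBXW), UBR ligases and UBE4. No measured value entered that pattern. One RNA taken by the pattern, USP6NL, does not encode a ubiquitin protease: its product acts on Rab GTPases and is named for its likeness to part of a USP.

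Ubiquitin is a small protein that cells attach to other proteins, most often to mark them for the proteasome. An activating enzyme passes it to a conjugating enzyme, and a ligase then places it on a chosen substrate. In cullin-RING ligases the cullin is the scaffold and the F-box protein, or another receptor, holds the substrate. Deubiquitinases remove the mark again. Here the nascent and nuclear RNAs of these genes were measured, not their proteins, and a contact says where on chromatin an RNA lay.

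The contacts came from GRID-seq, which joins RNA in fixed nuclei through a linker to the DNA beside it. The cells were K562, an established human leukaemia line that carries the BCR-ABL1 fusion, either with wild-type RUNX1 (WT) or with RUNX1 R320*, a premature stop in this blood transcription factor. Each genotype had 2 libraries, 4 in all, and nothing in the labels tells if the libraries of a genotype are separate cultures, or if R320* cells came from 1 clone. The deposited table pools each genotype into 1 score per connection, a connection being an RNA paired with an active enhancer or an active promoter. A score was listed only above 1.2, so an absent score was read as not listed and never as 0. With 1 pooled value per genotype there was no replicate spread and no test, and each difference between the genotypes below is a description of these pooled values. Each SD below is taken over RNAs or over connections. Of 12 markers of K562 looked for among the listed RNAs, 5 were present (HBG2, HBE1, TFRC, ABL1 and BCR), and of 7 markers of other cell types 0 were. The other 7 K562 markers, GATA1 and the alpha-globins among them, were not listed. All 77 genes were found in RefSeq on GRCh38.p14, the assembly to which hg38 coordinates belong. The Ensembl identifier was looked up first, and the symbol or an older symbol only where that failed.

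The 77 RNAs had 3777 connections to 3537 elements, and their genes lay on 22 chromosomes. WT listed 2726 of the connections and R320* listed 2951. The genotypes shared 1900 (50.3%), beside 48.6% over all protein-coding RNAs and 45.2% over the whole table. WT alone listed 826 (21.9%) and R320* alone 1051 (27.8%). A single RNA had between 5 connections (RNF220) and 316 (FBXO38), with a median of 39. Over the RNAs listed in a genotype, the median was 31 connections in WT and 36.5 in R320*, beside 27 and 30 for protein-coding RNAs. Enhancers made up 2491 connections (66%) and promoters 1286 (34%), the same shares as in the whole table. The number of connections followed gene length only loosely, with a Spearman correlation of 0.30 across the 77 genes, which share the same libraries.

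FBXO38, a substrate receptor of SCF ligases, stood apart with 159 connections in WT and 193 in R320*. FBXW7, the receptor that brings cyclin E and MYC to the SCF ligase, had 74 and 69. UBR2, which recognises destabilising N-terminal residues, had 81 in each genotype. UBE2K, a conjugating enzyme that can build ubiquitin chains, had 61 and 79. USP15, a deubiquitinase, had 72 and 55. CUL1, the scaffold of the SCF ligase itself, had 59 and 66. TRIM24, a chromatin reader with a RING domain, had 64 and 71. RNF217, a RING ligase, had 49 and 66, and UBE3C, a HECT-type ligase that works at the proteasome, had 68 and 58. The U-box ligase UBE4B, which extends ubiquitin chains, had 38 and 44. Both directions occurred among these RNAs. Similar numbers did not mean the same elements. The part of an RNA's connections listed in both genotypes ran from 11.4% (FBXO38) to 74.2% (UBR2) among them, beside 48.6% over all protein-coding RNAs.

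**Figure D1:**
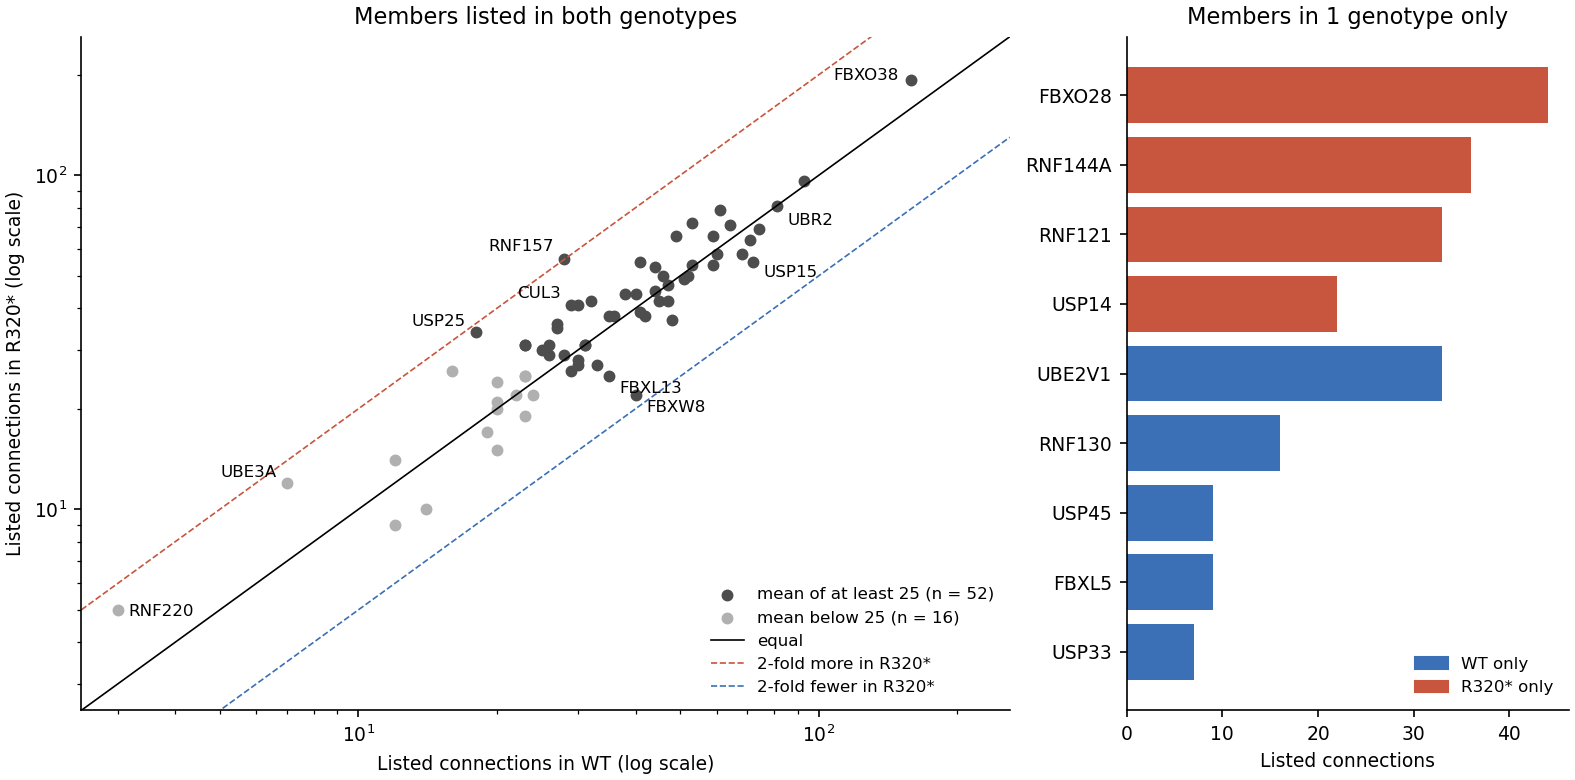
Left, listed connections of each of the 68 RNAs found in both genotypes, WT across and R320* upward, both on log scales, with the line of equality and the 2-fold lines; dark points have a mean of at least 25 connections. RNF157 sits on the upper 2-fold line (28 and 56), FBXW8 lies nearest the lower one (40 and 22), and FBXO38 lies far to the upper right. Right, connections of the 9 RNAs listed in 1 genotype only, from 7 (USP33) to 44 (FBXO28).

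Which of these RNAs met more or fewer elements in R320* cells was asked for the 52 RNAs listed in both genotypes with a mean of at least 25 connections; 16 more were listed in both but fell below that number. R320* had more connections for 29 of the 52 (55.8%), beside 58.5% over the 1293 RNAs of the table that met the same minimum. It had fewer for 19 (36.5%, beside 36.4%) and the same number for 4 (7.69%, beside 5.03%). The median log2 ratio of R320* over WT was 0.05 (SD 0.33 over the 52 RNAs), beside 0.08 over the whole table. At least 2-fold more connections were found for 1 RNA, RNF157 (1.92%, beside 0.619%), and at least 2-fold fewer for 0 (beside 0.619%). The shares higher and lower were therefore close to those of the table as a whole. Divided by each genotype's total of connections, RNF157 also fell below 2-fold and the count was 0. The table holds no RNA level, so fewer cells with an RNA, less of it per cell and fewer places of contact cannot be told apart.

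By class, the RNAs with a USP symbol, USP6NL still among them, were split, with 6 of 13 higher in R320*, 5 lower and 2 equal. The conjugating enzymes had 2 of 5 higher and 3 lower. HECT-type ligases had 1 of 4 higher, 2 lower and 1 equal, and the F-box receptors had 4 of 10 higher and 6 lower, with a median log2 ratio of -0.08. RING-type ligases had 7 of 9 higher (median 0.27). All 4 tripartite motif RNAs (median 0.29) and all 3 cullin RNAs above the minimum (median 0.37) were higher. The UBR ligases had 1 of 3 higher, 1 lower and 1 equal. These classes are small and 58.5% of all RNAs were higher, so the split by class stands as a count alone.

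RNF157, a RING ligase known mainly from neurons, met 28 elements in WT and 56 in R320*, a log2 ratio of 1.00. Its gene (ENSG00000141576.16) lies on the minus strand at chr17:76142474-76240493. The 25 connections found in both genotypes lay at a median of 142 kb from the gene, and 31 were found in R320* alone, at a median of 315 kb, with scores up to 2.19. The highest of those 31 were enhancers at RHBDF2 (2.19), at AC087289.1 (2.14) and at ST6GALNAC2 (2.07), all between 269 and 353 kb away. WT alone had 3. The contacts of R320* alone thus had a larger median distance, while the shared ones reached 468 kb, so that the ranges of distance overlapped. Within 500 kb of the gene, the RNAs of MFSD11 and UNK were listed in WT alone, with 21 and 20 connections, and PRCD had 29 and 28. Of the 59 elements RNF157 RNA met, other RNAs reached 35 in WT and 21 in R320*.

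USP25, a deubiquitinase, met 18 elements in WT and 34 in R320*, a log2 ratio of 0.92, and all 18 of WT were also found in R320*. The gene (ENSG00000155313.15) lies at chr21:15729982-15880064 on the plus strand. Of the 16 found in R320* alone, 14 were on chromosome 21 and the other two were a promoter (2.504) and an enhancer (2.26) at NCL on chromosome 2. No RNA of a gene within 500 kb was listed in either genotype. CUL3, the scaffold that works with BTB-domain receptors, had 29 and 41 connections (0.50). RNF169, which binds ubiquitylated chromatin at DNA breaks, had 30 and 41 (0.45). TRIM33, a chromatin-bound regulator of SMAD signalling, had 53 and 72 (0.44). TRIM37, a centrosomal ligase, had 23 and 31, as had the USP54 RNA (0.43 each), and RNF217 had 49 and 66 (0.43). Joining elements within 1 Mb into regions, trans ones included, gave CUL3 6 regions in WT and 5 in R320*. RNF157, RNF169, TRIM37 and USP54 then had 1 region in each genotype. Their contacts reached at most 1.27 Mb (RNF157), and contacts so close to a gene tend to join into 1 region whatever their number. These region counts are thus no check on their differences in connections. R320* stayed higher for USP25 (2 and 5), TRIM33 (1 and 3) and RNF217 (9 and 16). For TRIM33 the shared connections lay at a median of 521 kb, and the 29 of R320* alone at 1861 kb. For TRIM37 the gene model overlaps that of PPM1E, whose RNA had 34 connections in WT and 0 in R320*, with 22 elements in common. RNF169 likewise overlaps XRRA1 (34 and 37), with 30 elements in common. Reads from such overlapping genes may be hard to assign, and the sources used here do not give how the authors assigned them.

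FBXW8, an F-box protein that pairs with the cullin CUL7, had the lowest log2 ratio, -0.86, with 40 elements met in WT and 22 in R320*. Its gene (ENSG00000174989.13) lies at chr12:116910950-117031148 on the plus strand. WT alone listed 19, of which 18 were upstream of the gene, at 316 to 3152 kb. They included enhancers at LINC02457 (2.04) and MED13L (2.02). Shared connections lay closer, at a median of 172 kb, and went to both sides, 10 upstream and 9 downstream. The strongest of them, an enhancer at FBXW8 itself, kept its score, 3.58 in WT and 3.56 in R320*. USP15 (72 and 55, -0.39) and HECTD4, a HECT-type ligase (30 and 27, -0.15), also lie on chromosome 12. On that chromosome 70 of 132 RNAs were listed in WT alone and 3 in R320* alone, and the median log2 ratio was -0.22 over 34 RNAs. None of these 3 ubiquitin RNAs was lost from R320*, and the part of the chromosome in their lower numbers was not tested. MON2, beside USP15, had 35 connections in WT and 0 in R320*, and PPM1H had 31 and 24.

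The other RNAs with lower numbers were on other chromosomes. FBXL13, an F-box protein, had 35 and 25 (-0.49). FBXO11, the receptor for BCL6, had 48 and 37 (-0.38), and its 19 connections of WT alone lay at a median of 7221 kb, beside 541 kb for the shared ones. Its gene model overlaps that of MSH6 (13 and 18), with 21 elements in common. UBE2W, which attaches ubiquitin to protein N-termini, had 33 and 27 (-0.29). UBE3C had 68 and 58 (-0.23). RNF24 had 47 and 42 and USP49, a histone H2B deubiquitinase, had 29 and 26 (-0.16 each). With elements joined within 1 Mb, trans ones included, FBXW8 had 2 regions in each genotype and USP49 had 1 in each. The contacts of USP49 reached at most 0.880 Mb, so its region count is no check on its difference in connections. R320* stayed lower for FBXL13 (4 and 3), USP15 (21 and 11) and FBXO11 (6 and 2). It was also lower for UBE2W (5 and 4), UBE3C (9 and 4) and RNF24 (3 and 2).

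**Figure D2:**
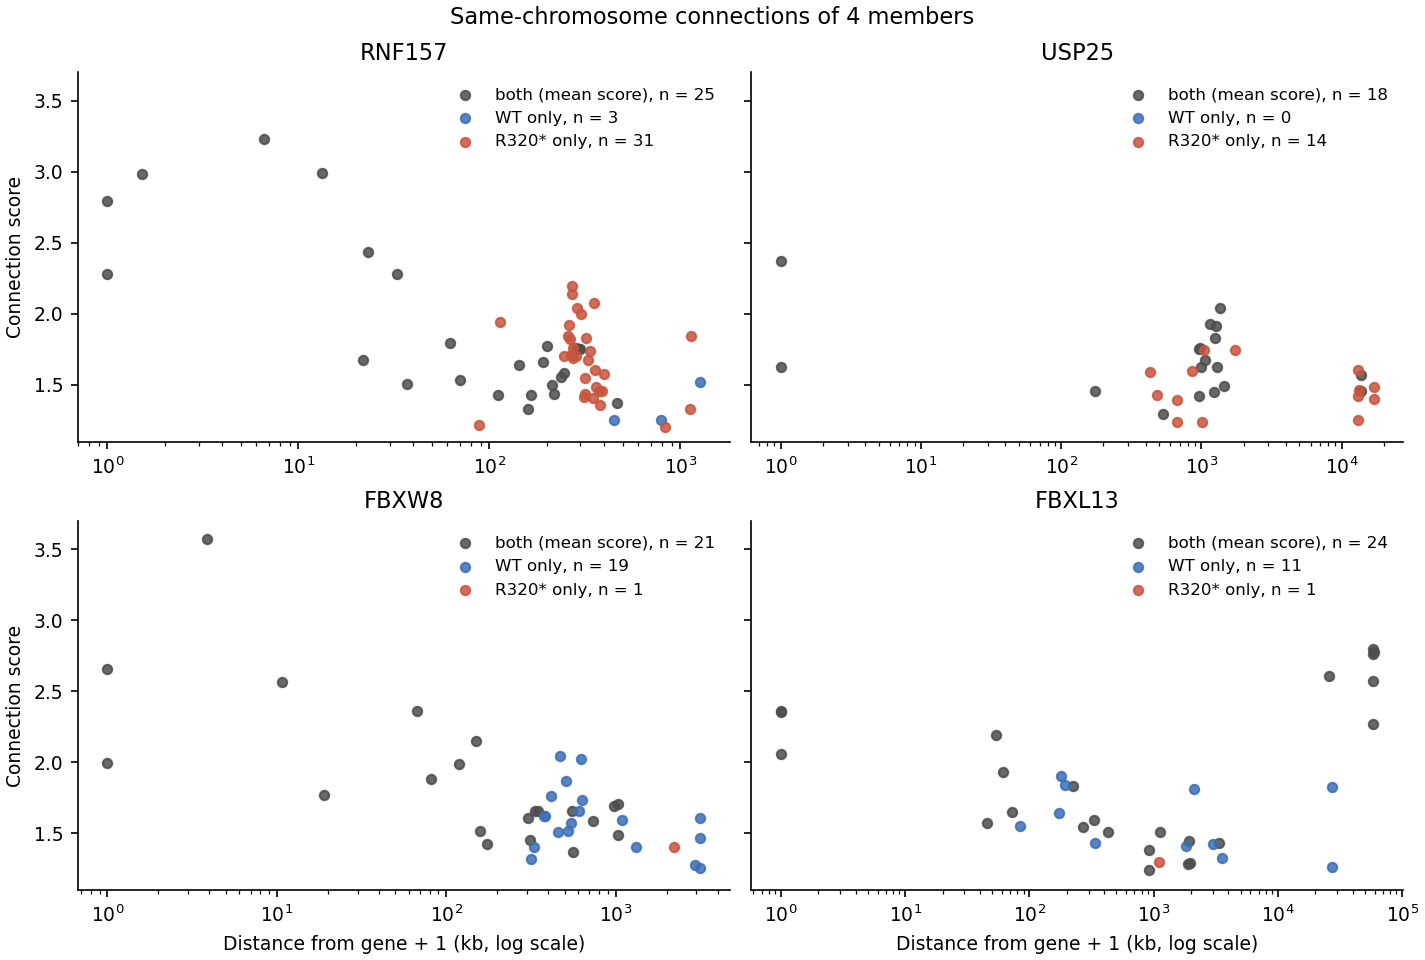
Score of every same-chromosome connection of RNF157, USP25, FBXW8 and FBXL13 RNA against its distance from the gene plus 1 kb, on a log scale, coloured by the genotype that listed it. RNF157 has 31 connections of R320* alone around 315 kb, FBXW8 has 19 of WT alone beyond 316 kb, and FBXL13 has shared connections scoring above 2.4 at distances of 25.7 and 58.8 Mb.

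The promoters of the RNAs that led these differences are shown because their own elements were met in both genotypes. Each runs from 250 bases before the RefSeq start to 50 after it on GRCh38.p14, 5′ to 3′ on the gene's strand, all in lower case because the RUNX core, marked in capitals where present, is not in them. The windows are RNF157 at chr17:76240444-76240743 (minus strand), USP25 at chr21:15729732-15730031 (plus strand) and FBXW8 at chr12:116910700-116910999 (plus strand).
RNF157: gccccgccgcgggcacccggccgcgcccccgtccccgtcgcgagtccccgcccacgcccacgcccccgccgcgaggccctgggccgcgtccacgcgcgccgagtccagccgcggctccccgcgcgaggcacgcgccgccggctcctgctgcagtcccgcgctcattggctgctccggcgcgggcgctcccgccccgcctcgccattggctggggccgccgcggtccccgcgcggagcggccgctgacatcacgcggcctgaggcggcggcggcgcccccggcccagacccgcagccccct
USP25: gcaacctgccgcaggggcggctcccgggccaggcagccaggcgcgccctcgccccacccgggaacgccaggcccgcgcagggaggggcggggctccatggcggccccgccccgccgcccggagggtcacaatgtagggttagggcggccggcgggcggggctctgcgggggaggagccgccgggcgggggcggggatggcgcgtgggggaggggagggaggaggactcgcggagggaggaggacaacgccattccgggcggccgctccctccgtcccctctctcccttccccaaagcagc
FBXW8: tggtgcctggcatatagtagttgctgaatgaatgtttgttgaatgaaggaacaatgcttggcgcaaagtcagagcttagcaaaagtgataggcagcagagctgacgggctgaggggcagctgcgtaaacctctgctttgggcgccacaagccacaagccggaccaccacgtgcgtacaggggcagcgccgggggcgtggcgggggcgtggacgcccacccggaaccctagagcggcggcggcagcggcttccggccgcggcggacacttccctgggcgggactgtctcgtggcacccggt
The promoter element over the first window had a score with RNF157 RNA of 2.24 in WT and 2.33 in R320*. The element over the second had 1.57 and 1.68 with USP25 RNA, and that over the third had 2.01 and 1.98 with FBXW8 RNA. At their own promoters these 3 RNAs thus differed by little while their numbers of connections differed. RefSeq windows were available for 66 of the 77 genes, and 63 overlapped an element of the table, 60 of them met by the gene's own RNA. Motifs were searched on both strands. The RUNX core TGTGGT was in 5 of the 66 windows (7.58%), beside 13.1% of all 35116 RefSeq windows of this length. A variant of it, TGCGGT, was in 6 (9.09%, beside 7.29%). The GATA motif AGATAA was in 2 (3.03%, beside 10.3%), and the E-box CAGCTG, the same on both strands, was in 8 (12.1%, beside 17.9%). Median GC content was 69.7% in the 66 windows and 58.7% in all windows, and these motifs differ in GC content.

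Of the 77 RNAs, 9 were listed in 1 genotype only. WT alone had 5 (6.49%, beside 10.4% of all RNAs and 9.82% of protein-coding RNAs). R320* alone had 4 (5.19%, beside 8.61% and 7.97%). Both shares were below those of the table. These RNAs have no ratio, since how far under the minimum score an unlisted RNA lay is not known. In the genotype that lacked them, none of their connections was listed, local ones included, and the reason was not tested.

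In WT alone, UBE2V1, a conjugating enzyme variant without a catalytic cysteine that partners UBE2N, had 33 connections, led by an enhancer 9.08 kb away (3.01) that is named for the TMEM189-UBE2V1 read-through gene. RNF130, a membrane-bound RING ligase, had 16, led by the TBC1D9B promoter (3.12). FBXL5, the iron-sensing receptor of the SCF ligase, and USP45, a deubiquitinase, had 9 each. The strongest of FBXL5 was its own local enhancer (2.95), and that of USP45 was the PNISR promoter (3.32). USP33, a deubiquitinase, had 7, led by a promoter at AC118549.1 (3.00). In R320* alone, FBXO28, an F-box protein, had 44, led by its own local enhancer (2.95) and promoter (2.87). RNF144A, a ligase of the RING-between-RING kind, had 36, with a promoter at AC017076.1 9.26 kb away (3.50) and an enhancer at RSPH14 on chromosome 22 (3.39). RNF121, a ligase of the secretory pathway, had 33, led by an enhancer at IL18BP 5.42 kb away (3.999). USP14, the deubiquitinase that sits on the proteasome, had 22, led by its own local enhancer (2.80). The leading scores of these 9 RNAs ran from 2.80 to 3.999, around the median of 3.00 for the strongest score over the 77 RNAs.

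The elements that these RNAs met were mostly still met by other RNAs where the RNA itself was absent. Other RNAs reached 43 of the 44 FBXO28 elements in WT, 34 of 36 for RNF144A, 27 of 33 for RNF121 and 20 of 22 for USP14. In R320*, other RNAs reached 31 of 33 UBE2V1 elements, 15 of 16 for RNF130, 8 of 9 for FBXL5, 7 of 9 for USP45 and 7 of 7 for USP33. Most of these elements were thus listed in both genotypes through other RNAs, but the same share over all elements is not given here. Most RNAs of genes within 500 kb were listed in both genotypes as well. So were most RNAs of the whole table, of which 19% were listed in 1 genotype only. WDR26, beside FBXO28, had 37 and 36 connections, and CNOT6, beside RNF130, had 48 and 46. Exceptions were TAPT1 beside FBXL5, with 6 in WT and 0 in R320*, and THOC1 beside USP14, with 0 and 15. THOC1 and USP14 have overlapping gene models and shared 11 elements, so their reads may not be told apart.

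Shared connections, those listed in both genotypes, had nearly the same score in each. A connection not above 1.2 in 1 genotype is not among them, so large changes are left out in part. The median score of the shared ones was 1.86 in WT, so a fall of 1 unit would take most of them off the list. Over the 1900 shared connections the difference, R320* minus WT, had a median of 0.0607 (SD 0.242), beside 0.0394 (SD 0.247) over the 52089 of the table. The median was above 0 for 58 of the 68 RNAs listed in both (85.3%), beside 72.4% of 2000 protein-coding RNAs. At least 1 unit separated the genotypes at 2 connections with the higher score in R320* (0.105%, beside 0.0998%) and at 1 with the lower score (0.0526%, beside 0.0749%). Among the higher ones was CUL5 RNA, from the cullin gene of SOCS-box ligases, at a DDX10 enhancer (1.35 in WT, 2.35 in R320*). Other large differences were those of USP54 at NUDT13 (1.38 and 2.36), FBXL4 at AL589826.2 (1.63 and 2.57), CUL3 at WDFY1 (1.65 and 2.48) and RNF24 at PRNP (1.33 and 2.16), all enhancers. The lower one was FBXO11 RNA at an ACYP2 enhancer (2.44 and 1.23). Behind it came the RNF145 RNA at the HMMR promoter (2.25 and 1.29), UBE3D at the PRSS35 promoter (2.14 and 1.24), RNF149 at an IL1R1 enhancer (2.27 and 1.45) and FBXO34 at a LINC00520 enhancer (2.14 and 1.38). The connections named here lay between 164 and 6167 kb away and none was local.

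Local connections, which the table types apart from cis and which lay at or beside the RNA's own gene, differed least in score. Each of the 77 RNAs had 1 to 3, 151 in all, and for the 68 RNAs listed in both genotypes all 132 were shared. The rest belonged to RNAs listed in 1 genotype only. The share of 87.4% of the 151 (beside 81.1% over the whole table) is thus set by that listing. Such RNAs were 11.7% of the 77 and 19% of all RNAs. The 132 shared connections had a median score of 2.24 in WT and 2.31 in R320*, and the difference ran from -0.207 to 0.213 (median 0.0480, SD 0.0740). This SD is well under that over all shared connections, 0.242.

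Sharing between the genotypes fell with distance. Up to 100 kb from the gene, both genotypes listed 84.5% of 588 connections. The share was 67.2% of 1593 between 100 kb and 1 Mb, 26.3% of 1120 farther out and 7.98% of 476 on other chromosomes. Protein-coding RNAs showed the same fall, from 80.9% to 61.5%, 26.8% and 12.3%. With the 9 RNAs of 1 genotype left out, the nearest share was 96.3% of 516. Scores fell too, with shared medians in WT of 2.22, 1.79 and 1.58 over the same 3 distances. The median same-chromosome connection of the ubiquitin RNAs lay 561 kb from the gene, beside 485 kb for protein-coding RNAs. Of 2708 connections with a known strand, 1348 (49.8%) were upstream, 134 (4.95%) within the gene and 1226 (45.3%) downstream, beside 48.1%, 5.19% and 46.7%.

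**Figure D3:**
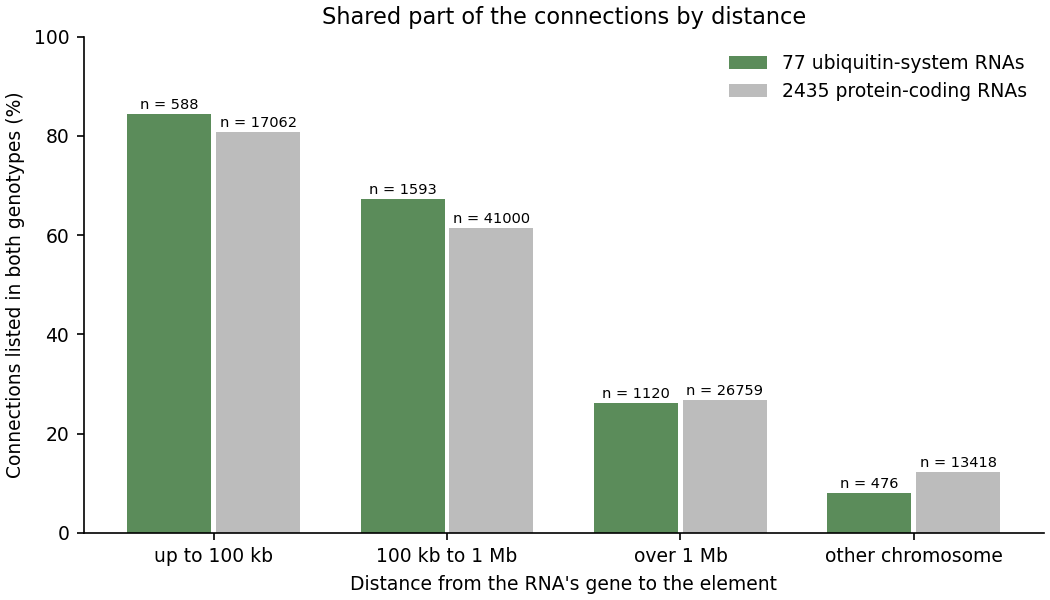
Share of connections listed in both genotypes, in percent, for the 77 ubiquitin-system RNAs (green) and all 2435 protein-coding RNAs (grey), by distance from the gene; numbers over the bars are connections. The green bars fall from 84.5% within 100 kb to 7.98% on other chromosomes, and the grey bars fall alike.

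The strongest connection of each RNA was usually close by. It was local for 9 RNAs, cis (elsewhere on the same chromosome) for 58, of which 43 were within 100 kb, and trans (on another chromosome) for 10. It went to an enhancer for 51 RNAs and a promoter for 26, and over all connections of the table these shares were 66% and 34%. It was shared by the genotypes for 60 RNAs, while the 9 RNAs listed in 1 genotype only could not share it. The strongest connections of all other RNAs are not given here for comparison. The scores ran from 2.25 (RNF169) upward with a median of 3.00. The highest of the set was RNF4, a SUMO-targeted ubiquitin ligase encoded on chromosome 4, at a FAM89A enhancer (chr1:231032571-231033365), with 4.55 in WT and 4.75 in R320*. The FAM89A promoter beside it scored 2.80 and 3.32. At that enhancer 20 other RNAs were listed, 0 of them trans from chromosome 4. UBE2K at an EHMT2 enhancer on chromosome 6 scored 4.17 in WT and was not listed in R320*, as was UBR2 at an RSPH1 enhancer on chromosome 21 (3.84). RNF121, listed in R320* alone, ranked between these with 3.999 at the IL18BP enhancer near its gene. The next 4 by score were also near their genes. UBE2W had 3.67 in WT and 3.76 in R320* at an enhancer 5.82 kb away, and TRIM33 had 3.72 and 3.67 at its own enhancer 9.75 kb away. FBXO42, an F-box protein that binds p53, had 3.60 and 3.54 at the CPLANE2 promoter, and USP49 had 3.49 and 3.59 at a MED20 enhancer. These 4 shared near contacts differed by at most 0.0954 between the genotypes, whereas the trans contacts of UBE2K and UBR2 were listed in WT alone.

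**Figure D4:**
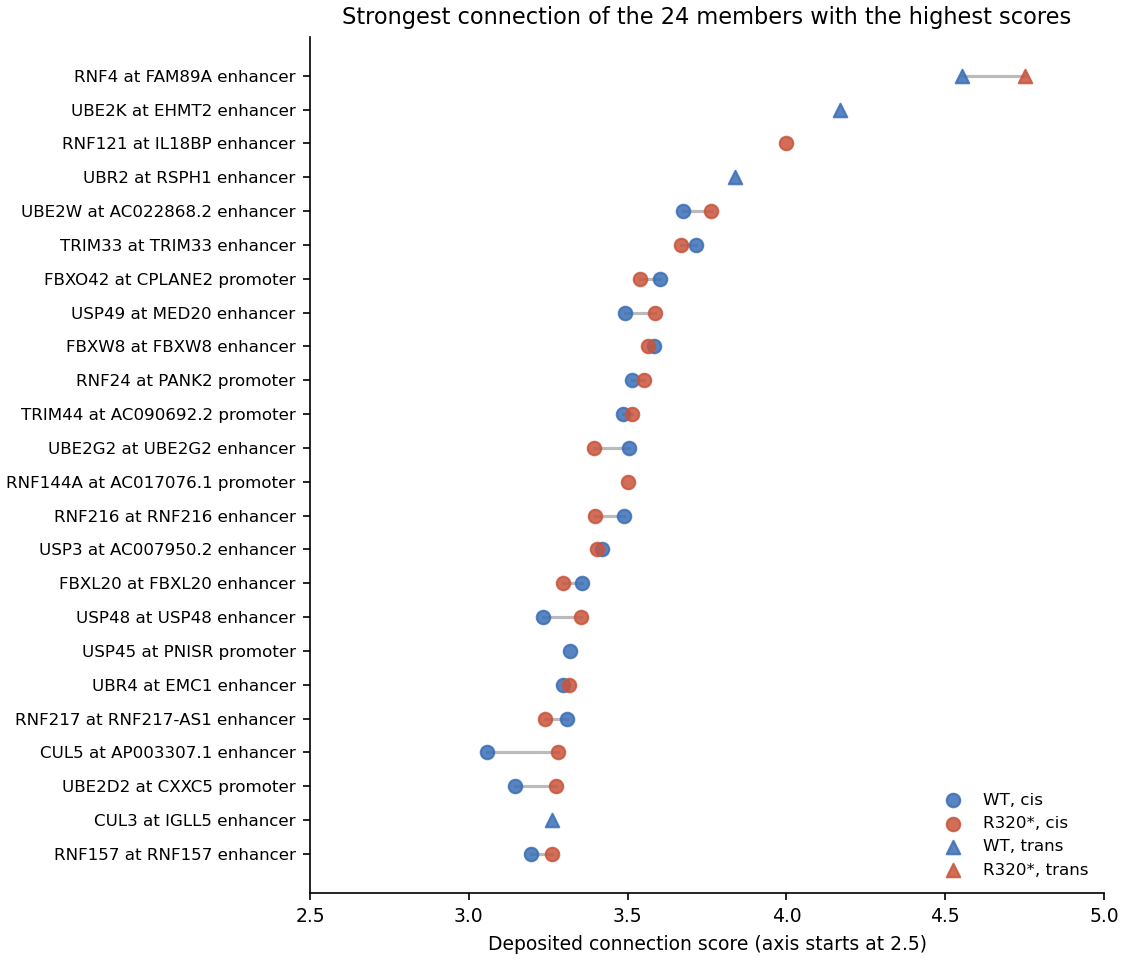
Strongest connection of the 24 RNAs with the highest scores, as the deposited score in WT (blue) and R320* (red), joined by a line where both genotypes listed it; circles are cis and triangles trans, and the axis starts at 2.5. RNF4 at FAM89A lies farthest right (4.55 and 4.75), and the lone triangles of UBE2K, UBR2 and CUL3 were listed in WT alone.

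Long reach along a chromosome was seldom shared. The farthest contact was that of UBR4, a UBR ligase, at the ABCB10 promoter 210 Mb away on chromosome 1, with 1.34 in R320* alone. USP34, a deubiquitinase of Wnt signalling, reached 109 Mb (1.45), FBXW7 97.7 Mb (1.31) and RNF217 88.6 Mb (1.35), all in R320* alone. Among shared connections the farthest was FBXL13 at a POLR2J4 enhancer 58.8 Mb away (2.83 in WT, 2.73 in R320*). USP32 reached 43.4 Mb (2.06 and 1.58), FBXW7 reached a GLRA3 enhancer at 22.1 Mb (1.51 and 1.83), and UBE2E1, a conjugating enzyme, reached BHLHE40 at 18.8 Mb (1.51 and 1.57). FBXL13 was the 1 RNA whose strongest connection was cis and beyond 1 Mb. Its high distant scores lay at 2 places on chromosome 7, 58.8 Mb away at POLR2J4, RASA4CP and DBNL and 25.7 Mb away at CCDC146 (2.46 and 2.75). In RefSeq the pseudogenes POLR2J4, RASA4CP and FAM185BP overlap these elements, apart from the DBNL promoter (2.59 and 2.55), which overlaps none of them. FAM185A overlaps the FBXL13 gene model, and POLR2J2, POLR2J3 and RASA4 lie beside it. The far element of USP32 overlaps USP32P1, a pseudogene of USP32, and RNF216 RNA met an element at RNF216P1 0.645 Mb away (2.16 and 2.32). At near-identical copies reads can be split between places, so these contacts are uncertain, and the part of copies in them was not tested.

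Of 476 trans connections, FBXO38 had 310 (65.1%), and 51 of the 77 RNAs had 0. FBXO38 ranked 9 among the 776 protein-coding RNAs with any trans connection. Of its 310, WT alone listed 118, R320* alone 157 and both 35, on 21 chromosomes. Joining elements within 1 Mb gave 100 regions in WT, 117 in R320* and 32 in both. The elements lay most often on chromosomes 7 (52), 1 (43), 22 (30) and 6 (28), but chromosomes differ in how many elements they have. As a share of the elements of a chromosome, chromosome 22 led with 4.23%, followed by chromosome 7 with 2.36%, and chromosome 1 had 1.03%. All 30 on chromosome 22 lay between chr22:19168327 and chr22:23227115, from CLTCL1 to BCR, so they do not stand for the whole chromosome. K562 carries the BCR-ABL1 fusion, and the part of that rearrangement in these contacts was not tested. On its own chromosome it had only 6, of which 5 were in WT alone and 13.3 to 72.9 Mb away. The sixth, a local enhancer inside the gene, had 1.61 in WT and 1.46 in R320*, low beside the local median of 2.24. The gene (ENSG00000145868.16) lies on the plus strand at chr5:148383958-148442836. Its trans scores were mostly low: the shared ones had medians of 1.37 in WT and 1.44 in R320*, and those of 1 genotype 1.32 in both cases. Its elements were also met by many RNAs, with a median of 6 per element and 18 at the shared ones, beside 2 over all elements. An element that many RNAs meet enters the set of any 1 RNA more readily, and no set matched for this was drawn.

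The shared trans contacts of FBXO38 RNA were led by the MALAT1 promoter (chr11:65495438-65506843), at 3.15 and 3.21, and the MALAT1 enhancer (chr11:65510456-65513905), at 2.93 and 2.98. MALAT1 is an abundant nuclear long noncoding RNA. The ZBTB37 promoter followed (2.17 and 2.09). Others were elements at HNRNPU, NUP214, SLC3A2, MIR17HG, NEAT1, BCR and ABL1, and an enhancer at UBE2L3, another gene of the set (1.35 and 1.59). The promoters at both ends of the strongest contact are shown, FBXO38 at chr5:148383708-148384007 and MALAT1 at chr11:65497488-65497787, both plus strand, with the RUNX core in capitals.
FBXO38: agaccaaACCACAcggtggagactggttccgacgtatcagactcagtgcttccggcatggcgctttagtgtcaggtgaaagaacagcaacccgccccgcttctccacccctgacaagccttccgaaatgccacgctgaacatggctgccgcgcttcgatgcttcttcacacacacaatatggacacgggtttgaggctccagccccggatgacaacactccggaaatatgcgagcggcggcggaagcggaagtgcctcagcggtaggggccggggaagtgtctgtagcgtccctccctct
MALAT1: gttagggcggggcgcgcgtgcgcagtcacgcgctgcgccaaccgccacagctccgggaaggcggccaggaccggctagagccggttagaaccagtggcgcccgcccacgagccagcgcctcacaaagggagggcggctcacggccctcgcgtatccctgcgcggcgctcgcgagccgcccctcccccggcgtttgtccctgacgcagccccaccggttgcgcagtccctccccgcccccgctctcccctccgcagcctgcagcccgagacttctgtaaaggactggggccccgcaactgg
The FBXO38 window holds ACCACA, the RUNX core read on the opposite strand, once and overlaps no element of the table. The MALAT1 window lies inside the promoter element that 279 RNAs met, 190 in WT and 187 in R320*.

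**Figure D5:**
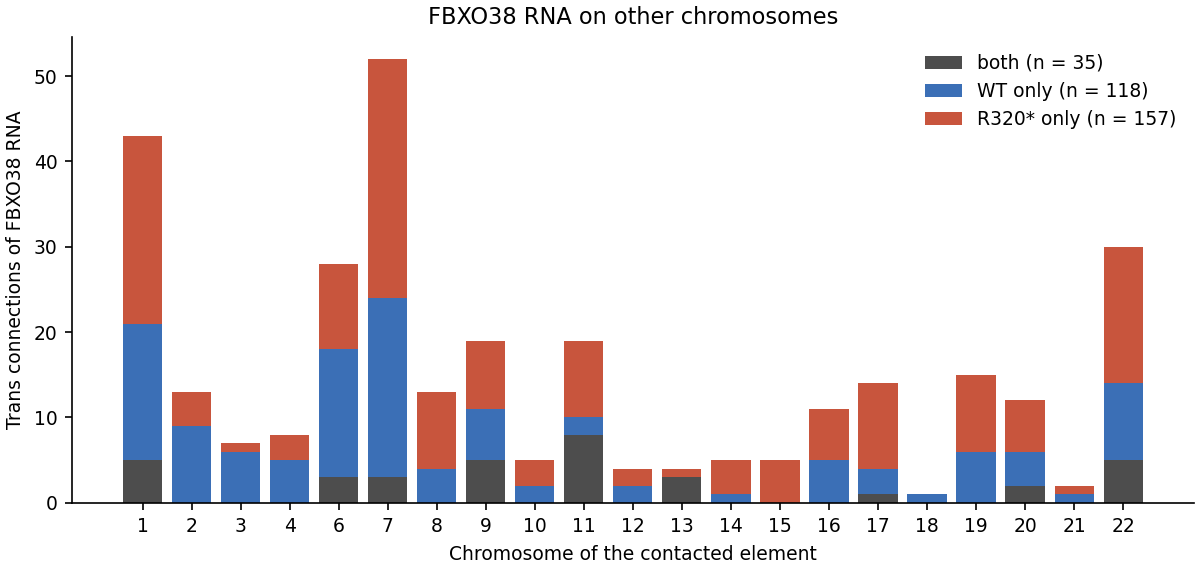
Trans connections of FBXO38 RNA by chromosome of the element, stacked by the genotype that listed them (35 in both, 118 in WT alone, 157 in R320* alone). Chromosome 7 has the most, 52, and chromosome 11 has the most shared, 8.

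Elements met by at least 4 of the 77 RNAs numbered 3, all in the MALAT1 region. The MALAT1 promoter was met by 6 of them (7.79%, beside 10.6% of all RNAs), the MALAT1 enhancer by the same number (7.79%, beside 10.3%) and the AP000769.3 promoter (chr11:65481104-65489544) by 5 (6.49%, beside 7.21%). At the MALAT1 promoter FBXO38 was listed in both genotypes. HERC1, a giant HECT-type ligase (3.13), and UBE2K (2.38) were listed in R320* alone. UBE3C (2.37), UBR3, a UBR ligase (2.31), and USP34 (2.17) were listed in WT alone. These shares were below those over all RNAs, and 5 of the 6 RNAs met the MALAT1 promoter in 1 genotype only. Of all 279 RNAs at that promoter, 92 were listed in WT alone, 89 in R320* alone and 98 in both, so listing in 1 genotype was common there.

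Trans contacts of the remaining RNAs were almost never shared. Without FBXO38 there were 166 in 25 RNAs, of which 3 (1.81%) were in both genotypes, 2 of RNF4 and 1 of UBE2L3. With FBXO38 the share was 7.98% of 476, beside 11.5% over all RNAs and 12.3% over protein-coding RNAs. Those shares leave out no RNA, so they are not matched to the 1.81%. USP15 had 19 in WT alone and 5 in R320* alone, UBE2K had 5 and 15, RNF217 had 7 and 13, and FBXW7 had 9 and 2. Neighbouring elements often carried 1 contact together: USP15 met a promoter (2.24) and an enhancer (2.41) at AHCYL1 on chromosome 1, both in WT alone. Counted as regions within 1 Mb, USP15 had 10 in WT, 3 in R320* and 0 in both. UBE2L3, a conjugating enzyme encoded on chromosome 22, shared an enhancer at NUP214 on chromosome 9 (2.19 and 2.13). It also met an AIF1L enhancer there in R320* alone (3.08), where 63 other RNAs were listed, 11 of them from chromosome 22. K562 carries the fusion of chromosomes 9 and 22, and the table types contacts by the reference chromosomes. Whether a contact between these chromosomes ran along the fused chromosome was not tested.

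Neighbouring genes of the set met the same elements. HERC1 and USP3, a histone deubiquitinase, lie 0.0140 Mb apart on chromosome 15 and shared 29 elements, 69.0% of those of HERC1 and 87.9% of those of USP3. UBR2 and USP49 on chromosome 6 shared 25 (26.9% and 78.1%). In all, 23 connections joined an RNA of the set to an element nearest to another gene of the set, such as FBXL4 RNA at the USP45 promoter (2.05 and 2.14). USP45 RNA itself was listed in WT alone, while FBXL4 RNA met that promoter in both genotypes. An element nearest to the RNA's own gene was met by 76 of the 77 RNAs.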

How the data were processed

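The submitters' processing notes name cutadapt 1.12, BWA, bedtools and build hg38. Deposited were 115357 connections, each with 1 score per genotype that the authors computed, either 0 or above 1.2. Its formula, scale, depth and pooling over libraries are not given in the sources read, so scores were compared by differences and never as ratios. Genotype labels gave the groups. Fixation used 2 mM DSG (45 minutes), then 3% formaldehyde (10 minutes), per the labels. Connections were counted per RNA with pandas 2.3.3, over the whole table. RNAs with a mean of at least 25 had a ratio, called at 2-fold, and a score difference was called at 1 unit. The counting was tested on simulated data. Distances ran from the nearest gene end in RefSeq to the nearest element end.

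The members, gene lists and rules were chosen with earlier results of these data known. Named were the RNAs with most connections, those with the largest ratios, scores, score differences and trans numbers, those listed in 1 genotype only, the leader of each class and those on chromosome 12. RNF220, UBR4, USP32, RNF216, UBE2E1, UBE2L3 and the pairs of neighbours were named after their values were seen. Results of 2 of the 77 RNAs are counted in the totals but not reported here by name. Alternatives covered the minimum, the connection types, merging within 1 Mb, a score of at least 1.5, genotype totals and leaving out chromosome 12.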

Additional observations from a re-analysis of the deposited data

How the results depend on the processing

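No paired analysis was possible because the table pools the libraries of each genotype into 1 score, so neither leaving out a replicate nor a replicate block could be run. Under the alternatives 31 values stayed close to the reported one and 8 moved, with 0 reversed in sign. Close meant equal or within 1.5-fold for a count, and inside an interval around the reported value for a median or share. Some values could not move. No RNA listed in 1 genotype only lies on chromosome 12, and each RNA had a local connection in every genotype that listed it. The tally is thus no measure of how firm the results are. The share of connections listed in both genotypes was 50.3%. It was 56.41% over local and cis connections, 52.46% with scores of at least 1.5, 53.25% over RNAs listed in both genotypes, 53.86% without FBXO38 (an alternative chosen after seeing the data) and 29.53% with connections merged within 1 Mb. The median score difference of 0.0607 was 0.0213 when centred on the median of the table. The count of RNAs with at least 2-fold more connections went from 1 to 0 after dividing by genotype totals, and to 0 after merging within 1 Mb, where 1 RNA met the minimum. The count with 2-fold fewer was 0 under each alternative run. The median log2 ratio ran from 0.00 (divided by genotype totals) to 0.15 (merged, 1 RNA). Leaving out USP6NL, also chosen after seeing the data, gave 0.05. Depth is unknown, and connections just under a score of 1.2 are not seen.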

Other observations

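Other genes of the ubiquitin and proteasome system, from a list of 197, were looked for in the same table, and 49 were listed. Among the 31 that met the same minimum, 20 had more connections in R320*, 10 had fewer and 1 had the same number. Over all RNAs that met it, 58.5% had more and 36.4% fewer. The median log2 ratio of the 31 was 0.10, beside 0.08 over all RNAs. At least 2-fold more was found for 1 and at least 2-fold fewer for 0, beside 0.619% of all RNAs in each direction. The former was BTRC, the F-box receptor for beta-catenin that bears another kind of symbol, with 7 connections in WT and 94 in R320*, and all 7 of WT were shared. WT alone listed 4 of the 49 and R320* alone 3, beside 10.4% and 8.61% of all RNAs. Of those in WT alone, MDM2 and ANAPC7 lie on chromosome 12, where 70 of 132 RNAs were listed in WT alone, and CBLB and SMURF2 do not. Those with most connections were DCAF6, a receptor of CUL4 ligases (110 and 113), BTRC, BIRC6, a giant inhibitor of apoptosis with ligase activity (74 and 63), ANKIB1, a RING-between-RING ligase (62 and 66), NPLOC4, a cofactor of the VCP segregase (48 and 52), and MDM4, a partner of MDM2 (45 and 50). Of 49 proteasome genes and assembly factors 6 were listed, and of the 4 ubiquitin genes and the 8 listed as COP9 subunits 0 were. Of 32 other deubiquitinases 2 were listed, beside the 17 RNAs with a USP symbol.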
